A study of Mus musculus with 7 samples.

Results

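Ndnf, Lamp5, Adarb2, Reln, Prox1, Calb2, Sncg, Npas1, Cxcl14 and Sp8 are markers of GABA interneurons born in the caudal ganglionic eminence (CGE), the part of the embryonic ventral forebrain many of whose neurons express the nuclear receptor Nr2f2 (COUP-TFII). The genes were taken by exact symbol from a table of 35976 gene symbols, and all 10 were found in it. All 10 also passed edgeR's filter on low counts, which left 14412 genes to test. Sp8 passed it with 0 counts in 3 sgRosa libraries.

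The libraries were made from neurons isolated from the amygdala of male C57BL/6J mice, 3 with a guide RNA against Nr2f2 (sgNr2f2) and 4 with a control guide against the Rosa locus (sgRosa). In both groups the guides reached the amygdala by adeno-associated virus and were expressed for more than 2 weeks, and Cas9 was driven by the Hsyn (synapsin) promoter, which is active in neurons of all kinds. All mice of both groups were then restrained in tubes for 7 days, fear conditioned on 1 day and taken through extinction over 3 days, so stressed animals are compared with stressed animals. Neither the age of the mice, nor the share of neurons that took up virus, nor whether a library stands for 1 animal or several was given in the sources used here. The p-values therefore describe only how these libraries vary, which may be technical.

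CGE interneurons include the neurogliaform cells, which release GABA diffusely and are marked by Ndnf, Lamp5 and Reln, and the cells that express vasoactive intestinal peptide, cholecystokinin or calretinin, among which Calb2 and Sncg are used as markers. Adarb2 and Prox1 mark the lineage as a whole, and Prox1 and Sp8 encode transcription factors that act in its development. In the basolateral amygdala such interneurons are a minority among excitatory projection neurons. The genes also have other sources: Prox1 is expressed in oligodendrocyte lineage cells and lymphatic endothelium as well, and Calb2 in many other neurons.

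COUP-TFII binds direct repeats of the sequence AGGTCA, so the promoters were searched for AGGTCA on either strand, in RefSeq windows of 300 bases on GRCm38.p6 that start 250 bases before a transcription start and end 50 bases after it. The table had 12 windows for 8 of the 10 genes and none for Ndnf and Calb2. The motif was present in 2 of the 12 windows, 1 of Cxcl14 and 1 of Sp8, and in 16.3% of all 32850 windows of the same length. The windows of Lamp5, Adarb2, Reln, Prox1, Sncg and Npas1 did not hold these letters. Both windows with a match are shown 5′ to 3′ on the strand of the gene, with the match in capitals. It reads TGACCT in each, since the motif lies on the other strand, and begins 130 bases before the start in Cxcl14 and 120 bases before it in Sp8. The Cxcl14 window lies at chr13:56296502-56296801 on the minus strand and the Sp8 window at chr12:118846983-118847282 on the plus strand.
Cxcl14: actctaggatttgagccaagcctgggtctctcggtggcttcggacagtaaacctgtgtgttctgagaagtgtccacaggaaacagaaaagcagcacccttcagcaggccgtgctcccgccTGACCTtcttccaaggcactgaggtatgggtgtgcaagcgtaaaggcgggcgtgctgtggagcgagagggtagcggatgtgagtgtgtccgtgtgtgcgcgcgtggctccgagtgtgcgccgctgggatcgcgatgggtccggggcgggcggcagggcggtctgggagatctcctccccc
Sp8: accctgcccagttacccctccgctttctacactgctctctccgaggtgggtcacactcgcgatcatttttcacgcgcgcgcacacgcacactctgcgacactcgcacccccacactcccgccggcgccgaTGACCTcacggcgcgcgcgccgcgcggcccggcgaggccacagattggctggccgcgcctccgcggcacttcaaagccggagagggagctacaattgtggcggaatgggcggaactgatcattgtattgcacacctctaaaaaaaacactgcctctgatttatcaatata
A match is a description of the letters and does not show a binding site.

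Levels are given as CPM, counts relative to library size, with library sizes corrected by TMM, and fold changes as log2 of sgNr2f2 over sgRosa from edgeR's quasi-likelihood fit over all 14412 genes, with p-values adjusted over all of them by the Benjamini-Hochberg method. Library totals ran from 16497269 to 20928677 counts in sgNr2f2 and from 6266897 to 19788953 in sgRosa. sgRosa replicate 4 had the lowest total and stood apart: its 5 erythroid genes summed to 31550 CPM, against 1047 to 3059 CPM in the other 6 libraries, its 12 pan-neuronal genes to 1950 CPM, against 490.4 to 808.5 CPM, and its 10 oligodendrocyte genes to 22920 CPM, against 97610 to 407500 CPM. The targeted gene Nr2f2 was counted 196, 214 and 191 times in sgNr2f2 replicates 1 to 3, against 422, 305, 166 and 96 in sgRosa replicates 1 to 4. Its levels overlapped between the groups, at 11.55 to 11.98 CPM in sgNr2f2 and 11.3 to 19.8 CPM in sgRosa. The log2 fold change was -0.36 (SE 0.37, edgeR adjusted p = 0.905), and 0.15 when scaled to genes of GABA neurons. Its paralogs Nr2f1 and Nr2f6 were at -0.68 (SE 0.76) and 0.27 (SE 0.49) and did not pass, and Nr2f1 changed sign, to 0.27, without sgRosa replicate 4. The transcript B130024G19Rik shares 643 exonic bases with Nr2f2. A Cas9 edit need not lower the count of a transcript, so these counts do not measure editing.

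The label of the cells, isolated neurons, held only in part. The 10 oligodendrocyte genes summed to 165600 to 407500 CPM in sgNr2f2 and 22920 to 346100 CPM in sgRosa. The 12 pan-neuronal genes summed to 532.6 to 657.1 CPM in sgNr2f2 and 490.4 to 1950 CPM in sgRosa. Much oligodendrocyte RNA was thus present. Genes of GABA neurons were present in every library: Gad1, Gad2 and Slc32a1, which make and load GABA, together had 402 to 657 counts per library in sgNr2f2 and 459 to 939 in sgRosa. The defining gene of the vasoactive intestinal peptide cells, Vip, was near 0 in all libraries but sgRosa replicate 1. Vip was counted 0, 3 and 0 times in sgNr2f2 replicates 1 to 3 and 84, 3, 4 and 2 in sgRosa replicates 1 to 4, and Htr3a, a serotonin receptor subunit typical of CGE interneurons, had 0 counts in all 3 sgNr2f2 libraries and 10, 0, 4 and 0 in sgRosa. A count of 0 allows up to 3 counts, or 0.140 to 0.409 CPM depending on the library, and covers counting error only. The members themselves were present at low levels next to oligodendrocyte transcripts, and in bulk RNA fewer cells of a type and less RNA per cell cannot be told apart.

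Per length of transcript, the order of the members over all 7 libraries was Calb2, Sncg, Prox1, Cxcl14, Lamp5, Ndnf, Npas1, Reln, Adarb2 and Sp8. The median level was 13.2 RPKM (CPM per kilobase of GENCODE M21 exons) for Calb2, 1.061 RPKM for Ndnf and 0.0860 RPKM for Sp8. Every neighbouring pair in this order overlapped in its range over libraries. Sncg lay above Prox1 in 7 of 7 libraries, but Prox1 lay above Cxcl14 in only 4 and Reln above Adarb2 in only 3.

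In sgNr2f2 against sgRosa, none of the 10 genes passed the adjusted test. Ndnf was the only one of them with groups that did not overlap. The log2 fold change was negative for 7 of the 10, Ndnf, Lamp5, Reln, Calb2, Sncg, Npas1 and Cxcl14, and positive for Adarb2, Prox1 and Sp8. The median of the 10 was -1.16, beside a median of -0.11 over all genes tested, of which 56.2% had a negative value. edgeR called 0 of 14412 genes lower (0.0%) and 0 higher (0.0%), and at an unadjusted p under 0.05 it listed 407 genes lower (2.82%) and 314 higher (2.18%), with DESeq2 calling 6 genes lower (0.0251%) and 1 higher (0.00418%) and limma-voom 0. The members with an unadjusted p under 0.05 were Ndnf and Sncg. Groups did not overlap, with sgNr2f2 lower, for 562 genes (3.9%) and for 1 of the 10 members, and with sgNr2f2 higher for 635 genes (4.41%) and 0 members. Without sgRosa replicate 4 the median of the 10 was -0.42, with 8 negative (52.5% of all genes), and the median over all genes was then -0.03. The summed level of the 10 genes was 113.2, 63.7 and 98.1 CPM in sgNr2f2 replicates 1 to 3 and 135.0, 135.9, 137.8 and 498.7 CPM in sgRosa replicates 1 to 4. Calb2 made up 385.0 CPM of the sum in sgRosa replicate 4.

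**Figure D1:**
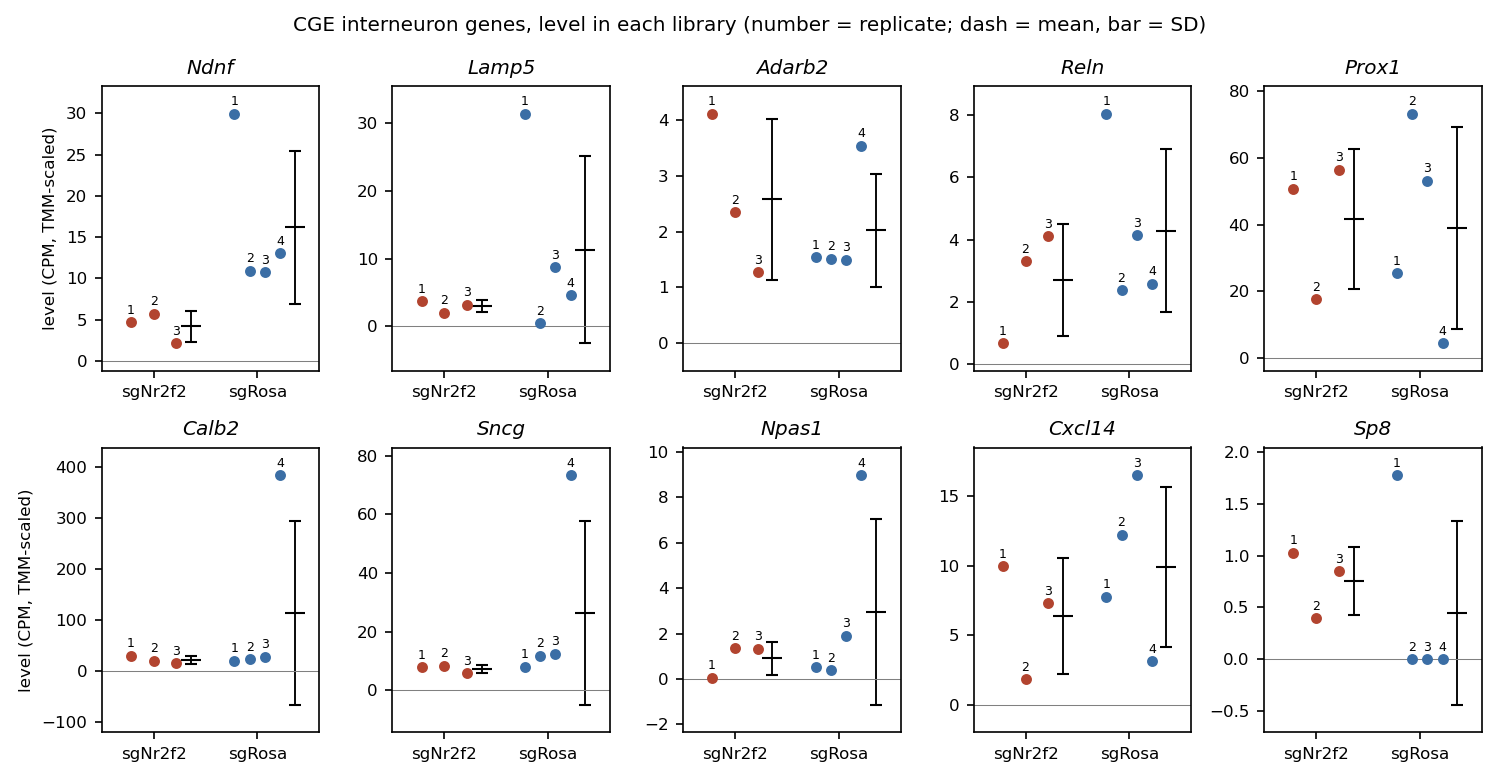
Level of each of the 10 CGE interneuron genes (vertical axis, CPM on TMM-scaled library sizes) in the 3 sgNr2f2 libraries (left, red) and the 4 sgRosa libraries (right, blue). Points are libraries numbered by replicate, and the dash and bar beside them are the mean and SD; the groups are apart only for Ndnf, and single sgRosa libraries stand far above the others for Lamp5 (replicate 1) and for Calb2, Sncg and Npas1 (replicate 4).

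Ndnf, which encodes a secreted neurotrophic factor and is the main marker of cortical neurogliaform cells of the outermost layer, lay on chromosome 6 (65671590 to 65712326, mm10) and overlapped no other annotated gene. Its counts were 77, 102 and 35 for sgNr2f2 replicates 1 to 3 and 640, 202, 158 and 96 in sgRosa replicates 1 to 4. These were 4.66, 5.71 and 2.12 CPM in sgNr2f2 and 30.0, 10.9, 10.7 and 13.1 CPM in sgRosa. Each sgNr2f2 library was below each sgRosa library, and sgRosa replicate 1 was far above the other sgRosa libraries. The mean was 4.16 ± 1.85 CPM in sgNr2f2 (SD, n = 3) and 16.2 ± 9.26 CPM in sgRosa (SD, n = 4). On the log2 scale the fold change was -1.96 (SE 0.56, 95% confidence interval from -3.20 to -0.72), which missed the threshold (edgeR adjusted p = 0.868, unadjusted p = 0.00548, rank 64 of 14412 by p). Leaving out 1 library at a time kept it between -2.25 (without sgNr2f2 replicate 2) and -1.48 (without sgRosa replicate 1). DESeq2 without sgRosa replicate 4 called it (-2.01, adjusted p = 0.0173), in a fit that called 124 genes lower (0.792%) and 233 higher (1.49%).

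Lamp5, which encodes a membrane protein related to the lysosome-associated family and marks neurogliaform cells together with Ndnf, lay on chromosome 2 (136052239 to 136069917). Its levels were 3.75, 2.02 and 3.20 CPM in sgNr2f2 replicates 1 to 3 and 31.4, 0.487, 8.70 and 4.63 CPM in sgRosa replicates 1 to 4. The sgRosa libraries thus held both the highest and the lowest of the 7, and the groups overlapped. sgRosa replicate 1 held 67.5% of all Lamp5 counts of the series. The fold change was -1.92 on the log2 scale (SE 1.02, edgeR adjusted p = 0.868), and -0.62 without that library. It was -0.83 (SE 1.24) in limma-voom and -0.09 (SE 1.14) with quality weights.

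Reln encodes reelin, a secreted glycoprotein of the extracellular matrix made by neurogliaform and other interneurons in the adult forebrain, and lay on chromosome 5 (21884454 to 22344702). It was at 0.665, 3.3 and 4.11 CPM in sgNr2f2 replicates 1 to 3 and at 8.05, 2.38, 4.14 and 2.59 CPM in sgRosa replicates 1 to 4. The groups overlapped, with sgRosa replicate 1 above all other libraries and sgNr2f2 replicate 1 below them. On the log2 scale Reln differed by -0.68 (SE 0.71, 95% confidence interval from -2.24 to 0.89, edgeR adjusted p = 0.906), and -0.18 without sgRosa replicate 1. An annotated antisense transcript, Gm10475, shares 246 exonic bases with Reln, and the strand setting of the counting is not given in the sources used here.

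Among 10 genes that receive or pass on the reelin signal, 8 had a positive log2 fold change and 2 a negative one. Of all genes tested, 56.2% were negative. The median of the 10 was 0.57, and 0.38 without sgRosa replicate 4, and none passed the adjusted test. Their summed level was 945.3, 1405 and 1023 CPM in sgNr2f2 replicates 1 to 3 and 638.2, 763.2, 895.7 and 424.5 CPM in sgRosa replicates 1 to 4, so that every sgNr2f2 library was above every sgRosa library. Taken singly, 4.41% of all genes tested had groups apart in this way. The largest parts of the sum were Pafah1b1, Itgb1 and Crk, with sgNr2f2 means of 288.0, 284.0 and 183.8 CPM. The receptor gene Vldlr lay at 41.1 ± 13.3 CPM in sgNr2f2 (SD, n = 3) and 56.3 ± 15.7 CPM in sgRosa (SD, n = 4). The receptor gene Lrp8 lay at 24.8 ± 3.82 CPM in sgNr2f2 and 18.2 ± 4.79 CPM in sgRosa, and the adaptor gene Dab1 at 12.2 ± 4.65 CPM in sgNr2f2 and 12.8 ± 3.54 CPM in sgRosa. The signs thus differed between the genes nearest to the ligand. Rapgef1, which encodes a guanine nucleotide exchange factor downstream of Dab1, was the member of the list with the smallest p. It was at 129.2 ± 51.8 CPM in sgNr2f2 (SD, n = 3) and 39.0 ± 15.5 CPM in sgRosa (SD, n = 4). The log2 fold change was 1.73 (SE 0.47, edgeR adjusted p = 0.868). Without sgRosa replicate 4 it was called by DESeq2, which called 233 genes higher (1.49%). It was also called without that library by edgeR scaled to the GABA genes, which called 52 genes higher (0.369%). With TMM scaling on the same libraries it was not called by edgeR (adjusted p = 0.235) or limma-voom (adjusted p = 0.283). These genes are expressed far beyond interneurons, so their levels are not those of CGE cells.

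Calb2, the gene of the calcium-binding protein calretinin, lay on chromosome 8 (110137502 to 110168210). Its levels were 30.4, 20.7 and 15.6 CPM in sgNr2f2 replicates 1 to 3 and 20.7, 22.9, 28.7 and 385.0 CPM in sgRosa replicates 1 to 4. Apart from sgRosa replicate 4, the sgRosa libraries lay within the wider range of the sgNr2f2 libraries. The log2 fold change of -2.36 (SE 1.08, edgeR adjusted p = 0.868) became -0.11 (SE 0.30, 95% confidence interval from -0.78 to 0.55) without that library.

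Sncg, which encodes gamma-synuclein and marks cholecystokinin basket cells, lay on chromosome 14 (34370274 to 34374789). It was at 7.80, 8.34 and 5.80 CPM in sgNr2f2 replicates 1 to 3 and at 7.96, 11.7, 12.4 and 73.4 CPM in sgRosa replicates 1 to 4. The groups overlapped through sgRosa replicate 1 and sgNr2f2 replicate 2. Sncg differed by -1.84 on the log2 scale (SE 0.77, edgeR adjusted p = 0.868, unadjusted p = 0.0377), and -0.55 (SE 0.31) without sgRosa replicate 4.

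Npas1, a transcription factor gene expressed in CGE interneurons and also in neurons of the external globus pallidus, lay on chromosome 7 (16455721 to 16477728). Npas1 was counted 1, 24 and 22 times in sgNr2f2 replicates 1 to 3 and 11, 7, 28 and 66 in sgRosa replicates 1 to 4. In CPM these were 0.0605, 1.34 and 1.33 in sgNr2f2 and 0.515, 0.379, 1.90 and 8.98 in sgRosa, so that the groups overlapped and sgRosa replicate 4 was highest. Npas1 differed by -1.64 on the log2 scale (SE 1.23, edgeR adjusted p = 0.874), and -0.01 without that library.

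Calb2, Sncg and Npas1 were thus each highest in sgRosa replicate 4, as were 32.7% of all genes tested. That library held 53.9% of all Calb2 counts, 36.3% of all Sncg counts and 41.5% of all Npas1 counts of the series. The same library had the highest summed pan-neuronal and erythroid levels, given above, and 458.1 CPM over 9 excitatory neuron genes, against 47.4 to 287.7 CPM in the other 6 libraries. Its 10 striatal and central amygdala genes summed to 454.6 CPM, against 54.8 to 211.8 CPM. The part of other neurons or of blood in the 3 genes' levels was not tested.

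Adarb2, which encodes a relative of the RNA-editing adenosine deaminases and is the broadest marker of CGE interneurons in the adult cortex, lay on chromosome 13 (8202866 to 8768747). Its levels were 4.11, 2.35 and 1.27 CPM in sgNr2f2 replicates 1 to 3 and 1.55, 1.51, 1.5 and 3.54 CPM in sgRosa replicates 1 to 4. The groups overlapped, with 3 sgRosa libraries close together and within the range of sgNr2f2. Adarb2 differed by 0.37 on the log2 scale (SE 0.64, 95% confidence interval from -1.05 to 1.79, edgeR adjusted p = 0.947), and it was -0.13 without sgNr2f2 replicate 1.

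Prox1, a homeobox transcription factor gene, lay on chromosome 1 (190118035 to 190170714). It was at 50.8, 17.7 and 56.5 CPM in sgNr2f2 replicates 1 to 3 and at 25.4, 73.3, 53.2 and 4.36 CPM in sgRosa replicates 1 to 4. Both groups spanned a wide range and overlapped, with means of 41.7 ± 21.0 CPM in sgNr2f2 (SD, n = 3) and 39.1 ± 30.4 CPM in sgRosa (SD, n = 4). Prox1 differed by 0.09 on the log2 scale (SE 0.77, 95% confidence interval from -1.61 to 1.79, edgeR adjusted p = 0.991), and it was as low as -0.28 without sgRosa replicate 4 and as high as 0.59 when sgRosa replicate 2 was left out. The antisense transcript Prox1os shares 133 exonic bases with it.

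Cxcl14, which encodes a chemokine made by CGE interneurons, lay on chromosome 13 (56288643 to 56296551). It was at 9.98, 1.85 and 7.32 CPM in sgNr2f2 replicates 1 to 3 and at 7.77, 12.2, 16.5 and 3.13 CPM in sgRosa replicates 1 to 4. The groups overlapped. Cxcl14 differed by -0.64 on the log2 scale (SE 0.67, 95% confidence interval from -2.14 to 0.86, edgeR adjusted p = 0.908). It was -1.13 without sgNr2f2 replicate 1 and -0.20 without sgNr2f2 replicate 2.

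Across libraries the level of Prox1 moved with that of oligodendrocyte genes. The 4 libraries with the highest summed level of 10 oligodendrocyte genes, sgNr2f2 replicates 1 and 3 and sgRosa replicates 2 and 3, had 315100 to 407500 CPM of these and 50.8 to 73.3 CPM of Prox1. The other 3, sgNr2f2 replicate 2 and sgRosa replicates 1 and 4, had 22920 to 165600 CPM and 4.36 to 25.4 CPM. Of these 3, sgNr2f2 replicate 2 and sgRosa replicate 4 had the lowest Cxcl14 levels, but sgRosa replicate 1 had 7.77 CPM, above the 7.32 CPM of the oligodendrocyte-rich sgNr2f2 replicate 3. The part of oligodendrocyte RNA in either gene was not tested.

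**Figure D2:**
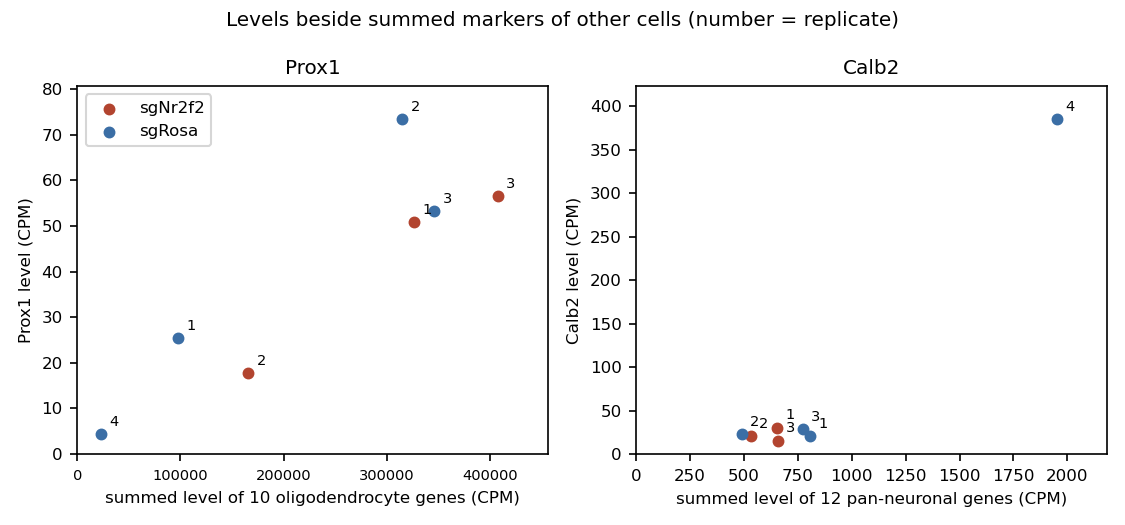
Level of Prox1 (left, CPM) against the summed level of 10 oligodendrocyte genes, and level of Calb2 (right, CPM) against the summed level of 12 pan-neuronal genes, with 1 point per library, sgNr2f2 in red and sgRosa in blue, numbered by replicate. Prox1 is at 50.8 CPM or more in the 4 libraries with the most oligodendrocyte RNA, and Calb2 is far above the rest in sgRosa replicate 4 alone.

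Sp8, a zinc finger transcription factor gene of the CGE and the lateral ganglionic eminence, lay on chromosome 12 (118846329 to 118852576). Sp8 was counted 17, 7 and 14 times in sgNr2f2 replicates 1 to 3 and 38, 0, 0 and 0 in sgRosa replicates 1 to 4. It was thus detected in each sgNr2f2 library and in 1 of 4 sgRosa libraries, which held as many counts as the sgNr2f2 libraries together. Depth limits this contrast: sgNr2f2 replicate 2 had 0.392 CPM, below the 0.409 CPM that a count of 0 allows in sgRosa replicate 4. The log2 fold change of 0.65 (SE 1.47, edgeR adjusted p = 0.957) rests on few counts and changed with the tool, to 2.7 (SE 1.36) in limma-voom and 4.01 (SE 1.1, adjusted p = 0.150) in limma-voom with quality weights, and without sgRosa replicate 1 the gene did not pass the filter on low counts.

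**Figure D3:**
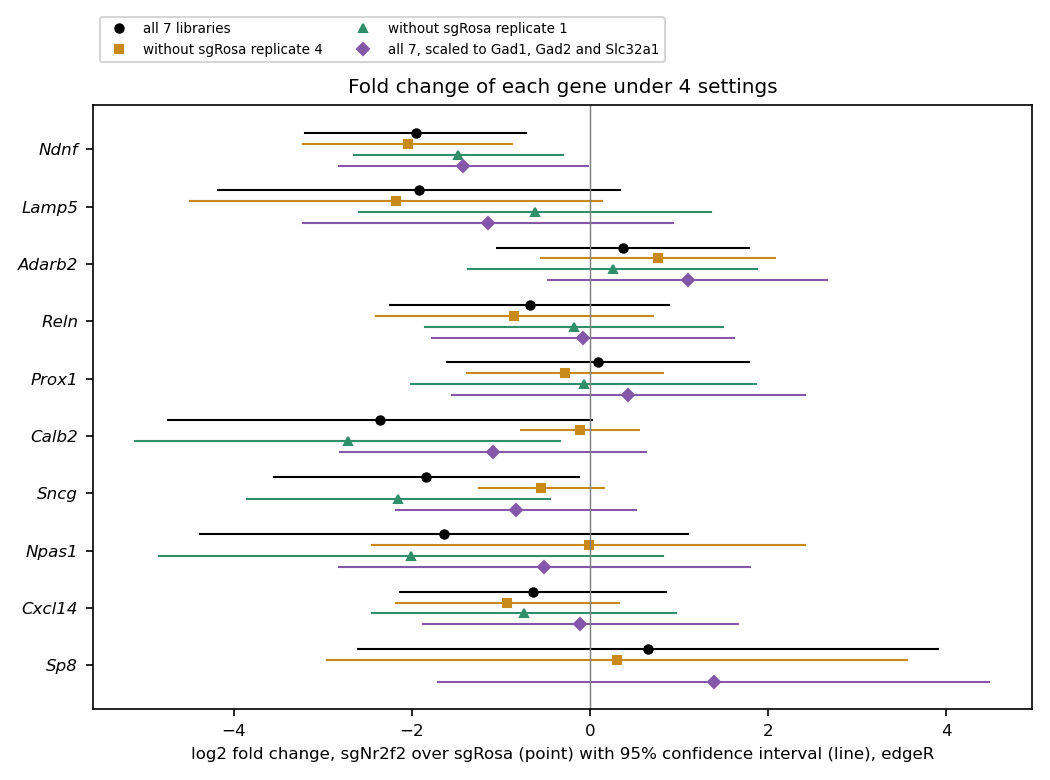
Log2 fold change of each gene, sgNr2f2 over sgRosa (points), with its 95% confidence interval from edgeR (lines), for all 7 libraries, without sgRosa replicate 4, without sgRosa replicate 1, and for all 7 libraries scaled to Gad1, Gad2 and Slc32a1. Ndnf keeps its interval below 0 in all 4, but scaled to the pan-neuronal list, which is not drawn, it runs from -3.02 to 0.0024. Calb2, Sncg and Npas1 move towards 0 without replicate 4 (-0.11, -0.55 and -0.01). Lamp5 moves towards 0 without replicate 1 (-0.62), and Sp8 has no value there.

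The libraries differed in how much RNA of GABA neurons they held. Gad1, Gad2 and Slc32a1 together had 23.5, 39.8 and 19.2 CPM of the unscaled library total in sgNr2f2 replicates 1 to 3 and 61.2, 23.2, 39.2 and 94.6 in sgRosa replicates 1 to 4. The groups overlapped, with means of 27.5 ± 10.9 in sgNr2f2 (SD, n = 3) and 54.6 ± 30.9 in sgRosa (SD, n = 4; exact two-sided permutation p = 0.257 over 35 splits, adjusted p = 0.371 over 3 library measures). The members were therefore also set against these 3 genes.

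On that scale Ndnf had 18.1, 15.5 and 8.71 counts per 100 counts of the 3 GABA genes in sgNr2f2 replicates 1 to 3, and 68.2, 44.0, 23 and 16.2 in sgRosa replicates 1 to 4. The groups now overlapped, because sgRosa replicate 4 lay between sgNr2f2 replicates 1 and 2. The 3 genes did not move together in that library. Gad1 was at its lowest there (33 counts, 4.49 CPM), while Gad2 (47.4 CPM) and Slc32a1 (28.9 CPM) were at their highest. The place of that library on this scale thus depends on how the 3 genes are combined, and scaling to 1 of them alone was not run. The Ndnf groups also overlapped when scaled to the pan-neuronal list instead, with a log2 fold change of -1.51 (SE 0.70). Scaled to all 3 genes, Ndnf differed by -1.42 on the log2 scale (SE 0.65, edgeR adjusted p = 0.895, unadjusted p = 0.0464), and -1.67 without sgRosa replicate 4 (SE 0.54, edgeR adjusted p = 0.171). Scaling to the GABA genes moved the median over all genes to 0.46 and listed 83 genes lower at an unadjusted p under 0.05 (0.576%).

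**Figure D4:**
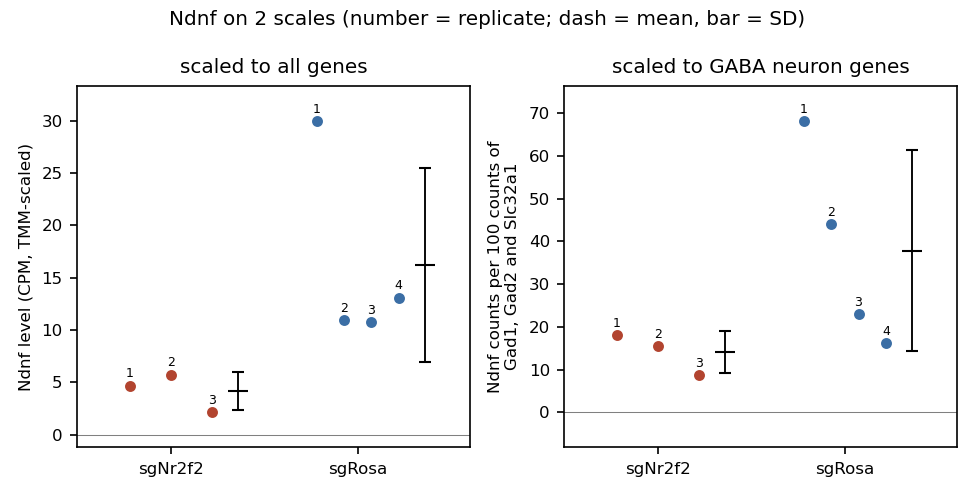
Ndnf in each library as CPM on TMM-scaled library sizes (left) and as counts per 100 counts of Gad1, Gad2 and Slc32a1 (right), sgNr2f2 in red and sgRosa in blue, numbered by replicate, with the mean (dash) and SD (bar). The groups are apart on the left, while on the right sgRosa replicate 4 (16.2) falls among the sgNr2f2 libraries (8.71 to 18.1).

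Scaled to the GABA genes, the median of the 10 members was -0.31, and 7 of them had a negative log2 fold change, as had 22.1% of all genes. Reln and Cxcl14 were then at -0.08 (SE 0.79) and -0.11 (SE 0.82), and Adarb2 and Sp8 at 1.1 (SE 0.73) and 1.39 (SE 1.44). None of the 10 passed on this scale, and 0 of the 10 had groups that did not overlap with sgNr2f2 lower, as against 82 of all genes (0.569%).

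The members did not share 1 library profile. By the root mean square distance between log2 CPM values centred over the 7 libraries, the closest of their 45 pairs were Calb2 and Sncg (0.45 log2 units), Prox1 and Cxcl14 (0.86), and Adarb2 and Sncg (0.996). Ndnf was closest to Reln among the members (1.119). Ndnf, Lamp5, Reln and Sp8 were each highest in sgRosa replicate 1, as were 14.5% of all genes tested, while Calb2, Sncg and Npas1 were highest in sgRosa replicate 4. sgRosa replicate 1 was also the library with 84 Vip counts, against 0 to 4 in the other libraries.

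**Figure D5:**
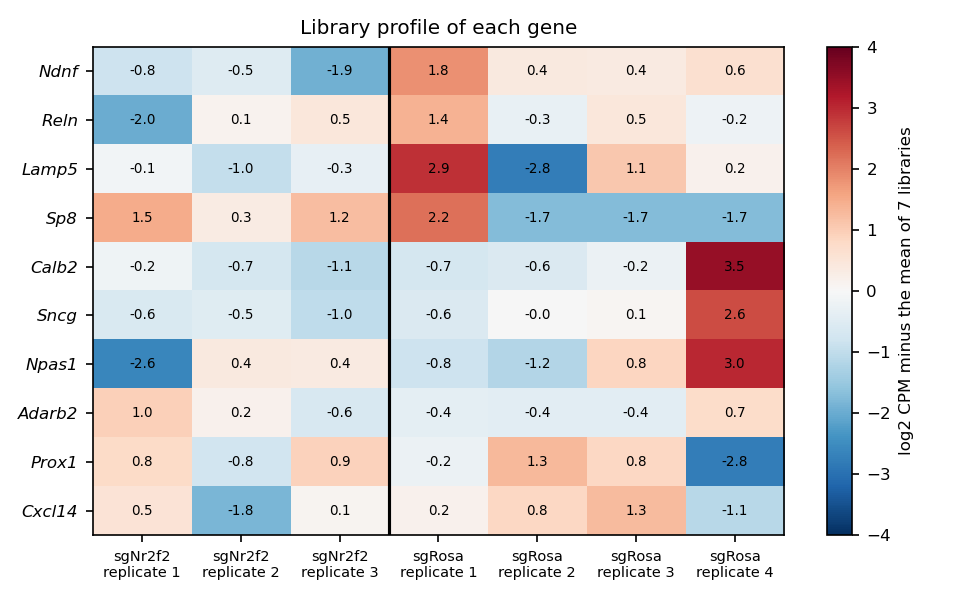
Log2 CPM of each gene minus its mean over the 7 libraries (colour and printed value), with the 3 sgNr2f2 libraries left of the line and the 4 sgRosa libraries right of it. Ndnf, Reln, Lamp5 and Sp8 are highest in sgRosa replicate 1, Calb2, Sncg and Npas1 in sgRosa replicate 4, and Prox1 is lowest in sgRosa replicate 4.

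Over 11934 genes with a mean of at least 20 counts per library, the 5 with a library profile nearest to that of Ndnf over these 7 libraries were Atf3 (distance 0.32 log2 units), Tgfb2 (0.35), Gabrg1 (0.46), Fos (0.49) and Fam13a (0.50). Their log2 fold changes were -1.35 for Atf3, -1.74 for Tgfb2, -1.06 for Gabrg1, -1.76 for Fos and -1.67 for Fam13a. These genes were chosen for a profile like that of Ndnf over the same libraries, so values of the same sign follow from the choice. Atf3 and Fos are immediate early genes, Tgfb2 encodes a growth factor and Gabrg1 a subunit of the GABA-A receptor.

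The wider set of CGE interneuron genes gave no call either. Of 20 further genes 14 were tested, 10 with a negative and 4 with a positive log2 fold change and a median of -0.65, which was -0.40 without sgRosa replicate 4. Vip, Htr3a, Slc17a8, Krt73, Egln3 and Chat had too few counts to be tested. Id2, an inhibitor of DNA-binding proteins found in neurogliaform cells but also in glia, lay at 13.3 ± 7.23 CPM in sgNr2f2 (SD, n = 3) and 29.2 ± 9.04 CPM in sgRosa (SD, n = 4), a log2 fold change of -1.13 (SE 0.47, edgeR adjusted p = 0.868). Pnoc and Tac2, the genes of the peptides nociceptin and neurokinin B, were at -1.66 (SE 0.83) and at -2.10 (SE 1.08) on the log2 scale, with overlapping groups, and at -0.29 and -0.64 without sgRosa replicate 4, which had 41.2 CPM of Pnoc and 19.5 CPM of Tac2. Scaled to the GABA genes the median of the 14 was 0.02, beside 0.46 over all genes on that scale.

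The lists for other GABA neurons also had negative medians. Of 10 interneuron genes of the medial ganglionic eminence tested, 8 were negative with a median of -0.85, which was -0.47 without sgRosa replicate 4. Scaled to the GABA genes their median was -0.04, beside 0.46 over all genes on that scale. Nxph1, which encodes a secreted ligand of neurexins, was at 8.17, 8.90 and 3.20 CPM in sgNr2f2 replicates 1 to 3 and at 19.1, 9.84, 14.95 and 24.6 CPM in sgRosa replicates 1 to 4, with groups that did not overlap. It differed by -1.34 on the log2 scale (SE 0.50, edgeR adjusted p = 0.868), and by -1.11 without sgRosa replicate 4. Sst, the gene of somatostatin, differed by -1.64 (SE 0.66, edgeR adjusted p = 0.868), and by -0.93 without that library. Of 7 general GABA neuron genes 4 were negative with a median of -0.15, which was -0.01 without sgRosa replicate 4. Gad2 was at -1.0 (SE 0.54, edgeR adjusted p = 0.868), and at -0.50 (SE 0.37) without that library. The median of 12 pan-neuronal genes was -0.67, with 11 negative, but -0.18 with 7 negative without sgRosa replicate 4. It was 0.27 when scaled to the GABA genes, where the median over all genes was 0.46. That of 10 oligodendrocyte genes was 0.54, with 0 negative, and 0.22 without sgRosa replicate 4. The difference between these lists and the CGE members was not tested.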

How the data were processed

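Per the labels' protocols, amygdalae were digested with papain, neurons were enriched magnetically, and NEBNext libraries were made from 5 ng of total RNA. The authors deposited unnormalized counts per gene symbol, as a table of the series that the 7 single-library files match. STAR 2.7.5c, featureCounts 2.0.1, fastp 0.23.2, edgeR 3.42.4, MultiQC 1.11, FastQC 0.11.9 and mm10 stand in the submitters' processing notes. How strand and multiply mapped reads were treated, and with which annotation, was not given in the sources used here, so overlapping and antisense genes can have exchanged reads. Of 35976 symbols, 11650 had no count in any library.

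Group differences were tested in R 4.3.3 with edgeR 4.0.16 (quasi-likelihood test, filterByExpr, TMM, group as the only term), using Benjamini-Hochberg adjustment at a threshold of 0.05. The alternatives were other scalings, no filter, DESeq2 1.42.0, limma-voom (limma 3.58.1, also with quality weights), the replicate number as a block and leaving out each library. The procedure was tested on simulated data for all 7 libraries, with 200 changed genes drawn from those with a mean of more than 20 counts. There edgeR recovered 0% of the 2-fold, 10.4% of the 4-fold and 43.9% of the 8-fold changes, and called 1 unchanged gene. DESeq2 recovered 52.2% of the 4-fold changes but called 44 unchanged genes. A gene that edgeR did not call can thus still differ, and a DESeq2 call needs caution. Changes in genes with fewer counts, such as Sp8, and fits with a library left out were not simulated. The members and lists were chosen with earlier results of these data known. The text names all members, Nr2f2 and its paralogs, some of the genes of smallest p per list (up to 3 each, with a mean of at least 20 counts), and the 5 genes nearest to Ndnf; other genes named, such as Vip and Htr3a, are defining markers of a list. Gene coordinates and exon lengths come from GENCODE M21. Total counts of 6266897 to 20928677 per library set the precision, and without molecular identifiers floors cover counting error only.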

Additional observations from a re-analysis of the deposited data

Results flagged for a closer look

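In 5 of the 10 genes 1 sgRosa library lay far from the other 3 by Dixon's test at the 95% level, which chance passes in about 1 of 20 groups and 18.6% of all 14412 genes tested passed; the sgNr2f2 group of 3 was not tested. Ndnf was at 30.0 CPM in sgRosa replicate 1, and Sp8 at 1.78 CPM in the same library. Adarb2 was at 3.54 CPM, Calb2 at 385.0 CPM and Sncg at 73.4 CPM in sgRosa replicate 4, the library with the lowest total and the highest summed pan-neuronal and erythroid levels. The part of other cells in these values was not tested.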

How the results depend on the processing

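The sign of the log2 fold change of Ndnf, Lamp5, Reln, Sncg and Cxcl14 was negative under every alternative run, although Lamp5 was only -0.09 for limma-voom with quality weights; 5 to 9 of the members tested were on the lower side. The number of members called stayed at 0 except for DESeq2 without sgRosa replicate 4, which called 1 (Ndnf) among 357 genes; DESeq2 on all 7 libraries called 7 genes, and scaling to Gad1, Gad2 and Slc32a1 without sgRosa replicate 4 called 62. DESeq2 on all 7 libraries gave no p for Sncg and Calb2. The number of members with groups that did not overlap was 2 with library size alone (Ndnf and Sncg), 0 when scaled to the GABA genes or to the pan-neuronal list, and 1 to 2 with 1 library left out. Over all genes the share with sgNr2f2 lower was 3.9% in the main setting and 0.569% on the GABA scale. It is not given for the other settings, and with fewer libraries groups come apart more easily in any gene. Whether the changes in this number are particular to the members was not tested. The median of the members was -0.31 scaled to the GABA genes, -0.49 scaled to the pan-neuronal list, -0.39 for limma-voom with quality weights, -0.39 for DESeq2 and -0.42 for limma-voom without sgRosa replicate 4, -0.11 scaled to the GABA genes without that library, and between -1.45 and -0.42 with 1 library left out. The median over all genes moved to -0.19 with upper-quartile factors, -0.33 with library size alone, 0.46 with the GABA genes and 0.27 with the pan-neuronal list.

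Prox1 changed sign to -0.068 with library size alone, -0.19 for limma-voom with quality weights, -0.26 for DESeq2 and -0.33 for limma-voom without sgRosa replicate 4, and ran from -0.28 to 0.59 with 1 library left out. Sp8 stayed positive but was 4.01 for limma-voom with quality weights and 2.41 with the replicate block. Adarb2 ran from -0.13 to 0.76. Npas1 was at 0.0035 for DESeq2 without sgRosa replicate 4 and, scaled to the GABA genes without it, at 0.46, with Calb2 at 0.25 and Pnoc at 0.16. Tac2 was at 0.17 for limma-voom with quality weights. Nr2f2 was at 0.15 scaled to the GABA genes. Nr2f1 was at 0.31 scaled to the GABA genes, 0.060 scaled to the pan-neuronal list, 0.62 for limma-voom with quality weights, 0.29 for DESeq2 and 0.065 for limma-voom without sgRosa replicate 4, 0.62 scaled to the GABA genes without it, and between -1.04 and 0.27 with 1 library left out. The cause of these changes was not tested.

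The labels name no pairing of the libraries. The deviations of same-numbered libraries from their group means correlated at -0.201, -0.262 and 0.0897. Libraries of differing number were not compared, so these values do not settle whether the numbers pair the libraries. With the replicate number as a block edgeR called 0 genes, the median of the members was -0.41, Prox1 was at -0.28 and Nr2f1 at 0.16. Sp8, Npas1, Reln and Adarb2 had few counts, which limits what could be detected.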
